A study of Mus musculus with 4 samples.

Results

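CUT&Tag with an antibody against Sub1 was examined at 10 mouse genes of the thioredoxin and peroxiredoxin system: Txn1, Txn2, Txnip, Txnrd2, Prdx1, Prdx2, Prdx3, Prdx4, Prdx5 and Prdx6. The genes were named as a list, and all 10 were found among 21887 protein-coding genes that RefSeq annotates on mouse build GRCm38.p6 (mm10). For each gene, the peaks that overlapped the gene body extended by 2 kb on either side (the window) were taken from each deposited peak list. CUT&Tag places a transposase at an antibody-bound protein and sequences the DNA cut there, and Sub1 is a DNA-binding cofactor of transcription. The tested cells were leukemia stem cells (LSCs), sorted from mice with MLL-AF9-driven disease as Lin-Sca-1-c-Kit+ marrow cells that carried CD16/32 and CD34. They were set against hematopoietic stem cells (HSCs), sorted as CD48-CD150+LSK cells, where LSK stands for Lin-Sca-1+c-Kit+. Both groups came from bone marrow of Nup214fl/+ mice, with 1 floxed and 1 wild-type allele of a nuclear pore gene, so neither group is Nup214 wild type. The cell type field names HSCs in all 4 samples, LSC samples included. Each group had 2 libraries, the labels do not say whether they came from separate mice, and p-values then measure the spread between libraries, which may be technical. The name Sub1 for the target is the labels' own: every peak name in the 4 lists begins with H4-Cut, a prefix without explanation in the labels, and no value in the files checks the antibody.

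LSC 1 and LSC 2 had 41097 and 34185 peaks, and HSC 1 and HSC 2 had 115881 and 235680. Read totals are not given, so depth is unknown. Since lists of such unequal length cannot be compared by rank, each was also cut to its 34185 peaks of highest -log10 p. The list percentile used below is the rank of a peak in such a list as a percentage of 34185, so that a low value marks a strong peak. Among the 10956 genes with a window peak in all 4 cut lists, the median list percentile of the strongest peak was 12.9% and 12.5% in LSC 1 and LSC 2 and 13.2% in both HSC libraries. Over all protein-coding genes, including those without a peak in a cut list, the median list percentile differed between the groups. It was 33.5% and 34.0% in LSC 1 and LSC 2 and 61.1% and 57.4% in HSC 1 and HSC 2. Near equality of the groups on this scale therefore holds for the 10956 genes and not for all genes. The authors' fold is the ratio of a peak to its local background. For the 10956 genes, its median was 125 and 85.8 in the LSC lists and 31.9 and 41.0 in the HSC lists. A higher fold in LSCs therefore does not show more Sub1 at a gene, and fold is given here to describe a peak within its own list. With 2 libraries against 2, the exact permutation test over 6 assignments cannot go below p = 0.33 (two-sided), so no difference in this account can pass a threshold of 0.05. A gene is instead described as ahead in a group when both libraries of that group lay on the stronger side of both libraries of the other. In bulk peak lists, fewer cells with a peak and less Sub1 per cell cannot be told apart.

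Thioredoxins are small proteins that reduce disulfides in other proteins and are themselves restored by thioredoxin reductases with electrons from NADPH. Peroxiredoxins are abundant peroxidases that destroy hydrogen peroxide and lipid hydroperoxides through a reactive cysteine, and most of them draw on thioredoxin for their next round. In blood, the system limits oxidative damage in red cells and in long-lived progenitors, and Txnip, which binds and inhibits thioredoxin, has been linked to stem cell quiescence. The title of the series ties Nup214 to ferroptosis, a death driven by lipid peroxides, in LSCs, which is where enzymes that remove peroxides come in.

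All 10 genes carried a Sub1 peak in every library. The share of all protein-coding genes with a window peak was 62.4% and 58% in LSC 1 and LSC 2 and 69.7% and 83.8% in HSC 1 and HSC 2, and 56.1% had a peak in all 4. No gene of the group was found in 1 group of cells alone, against 0.0777% of genes found in LSC 1 and LSC 2 but in no HSC list and 7.85% found in HSC 1 and HSC 2 but in no LSC list. In lists of 34185 peaks all 10 were again present in every library, against 60.5% and 58% of genes in LSC 1 and LSC 2, 54.2% and 56.7% in HSC 1 and HSC 2, and 50.1% in all 4. In these lists 2.49% of genes were in LSCs alone and 0.471% in HSCs alone, and 0 of the 10. In still shorter lists of 17092 peaks, 10 of 10 were found in each LSC library (54.9% and 53.6% of genes) and 9 of 10 in each HSC library (48.3% and 48.6%). Prdx4 was then the 1 gene in LSCs alone (3.78% of genes), with 0 in HSCs alone (0.375%) and 9 in all 4 libraries (44.5%). The strongest window peak sat at the start of the gene in nearly every case. RefSeq promoter entries gave the start of 9 of the 10 genes, Prdx6 being the other. The strongest peak covered the start in 9 of 9 genes in both LSC libraries, against 74.4% and 74.2% of protein-coding genes with a peak. In HSC 1 and HSC 2 it did so in 7 and 8 of 9 genes, against 57.1% and 45% of genes. A peak lay within 1 kb of the start in 9 of 9 genes in every library, against 55% and 52.8% of genes in LSC 1 and LSC 2 and 56.1% and 63.5% in HSC 1 and HSC 2. The HSC exceptions for the strongest peak were Prdx2 in both libraries and Prdx4 in HSC 1, where the peak began 46 bases inside the gene.

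The 250 bases before the start are printed for the genes that the comparisons turn on: Txn1 and Txnip, which were ahead in HSCs, Prdx3 and Prdx4, which were ahead in LSCs, and Prdx1 for a match to an antioxidant response element. The letters are from the RefSeq table of GRCm38.p6, 5′ to 3′ on the strand of the gene, ending at the base before the start. Capitals mark matches, on either strand, to 5 motifs: the GC box GGGCGG, the CCAAT box (named by its letters), the TATA box TATAAA, the E-box CACGTG and the antioxidant response element TGACNNNGC.
Txn1 (chr4:57956412-57956661, minus strand): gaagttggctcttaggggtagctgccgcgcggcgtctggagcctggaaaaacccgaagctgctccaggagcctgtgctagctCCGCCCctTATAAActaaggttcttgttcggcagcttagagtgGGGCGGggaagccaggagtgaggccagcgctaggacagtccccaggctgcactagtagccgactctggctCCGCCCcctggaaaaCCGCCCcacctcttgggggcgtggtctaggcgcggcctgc
Txnip (chr3:96557707-96557956, plus strand): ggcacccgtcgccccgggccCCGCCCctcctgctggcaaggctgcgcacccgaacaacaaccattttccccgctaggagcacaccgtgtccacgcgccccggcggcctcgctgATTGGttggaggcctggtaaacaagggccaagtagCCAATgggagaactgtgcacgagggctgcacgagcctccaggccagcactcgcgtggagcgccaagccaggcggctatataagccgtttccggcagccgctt
Prdx1 (chr4:116685349-116685598, plus strand): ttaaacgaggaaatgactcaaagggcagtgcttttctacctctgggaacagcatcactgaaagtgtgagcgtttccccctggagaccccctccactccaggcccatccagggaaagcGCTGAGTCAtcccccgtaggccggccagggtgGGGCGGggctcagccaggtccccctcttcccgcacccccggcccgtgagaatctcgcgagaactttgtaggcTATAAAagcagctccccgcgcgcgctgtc
Prdx3 (chr19:60874539-60874788, minus strand): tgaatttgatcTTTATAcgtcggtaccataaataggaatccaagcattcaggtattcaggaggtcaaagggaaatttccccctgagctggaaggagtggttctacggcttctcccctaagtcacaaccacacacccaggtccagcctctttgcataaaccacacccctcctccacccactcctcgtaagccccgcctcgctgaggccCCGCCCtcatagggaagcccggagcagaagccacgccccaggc
Prdx4 (chrX:155338461-155338710, minus strand): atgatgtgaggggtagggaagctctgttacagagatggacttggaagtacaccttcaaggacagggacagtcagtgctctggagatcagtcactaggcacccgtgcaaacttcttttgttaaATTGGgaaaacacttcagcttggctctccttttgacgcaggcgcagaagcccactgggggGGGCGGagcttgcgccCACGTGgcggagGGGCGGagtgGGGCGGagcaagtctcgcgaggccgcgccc
A GC box stood in 8 of the 9 promoters, against 42.6% of 21263 promoters of protein-coding genes, with Prdx2 the promoter without a match to any of these motifs. Txn1 had 4 GC boxes and Prdx4 had 3, the last of them 30 to 25 bases before the start. CCAAT was found at Txn2, Txnip and Prdx4 (35.4% of all promoters), with 2 matches at Txnip. TATAAA was found at Txn1, Prdx1 and Prdx3 (11.6% of all promoters), and only the Prdx1 match, 29 to 24 bases before the start, lay that near to it. Only the exact letters TATAAA counted, so the tatataa in the printed Txnip sequence is not among these matches. The antioxidant response element matched at Prdx1 alone, as GCTGAGTCA from base 133 to base 125 before the start (10.4% of all promoters), and CACGTG at Prdx4 alone (6.63%). A match describes the letters of the window and is not a measured binding site. Peaks covered all 250 bases in every library at Txn1, Txn2, Txnip, Txnrd2, Prdx1, Prdx2 and Prdx5. At Prdx3 they covered 100% in both LSC libraries, 66.0% in HSC 1 and 1.2% in HSC 2, and at Prdx4 63.2% and 14.0% in LSC 1 and LSC 2 and 0% and 100% in HSC 1 and HSC 2.

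**Figure D1:**
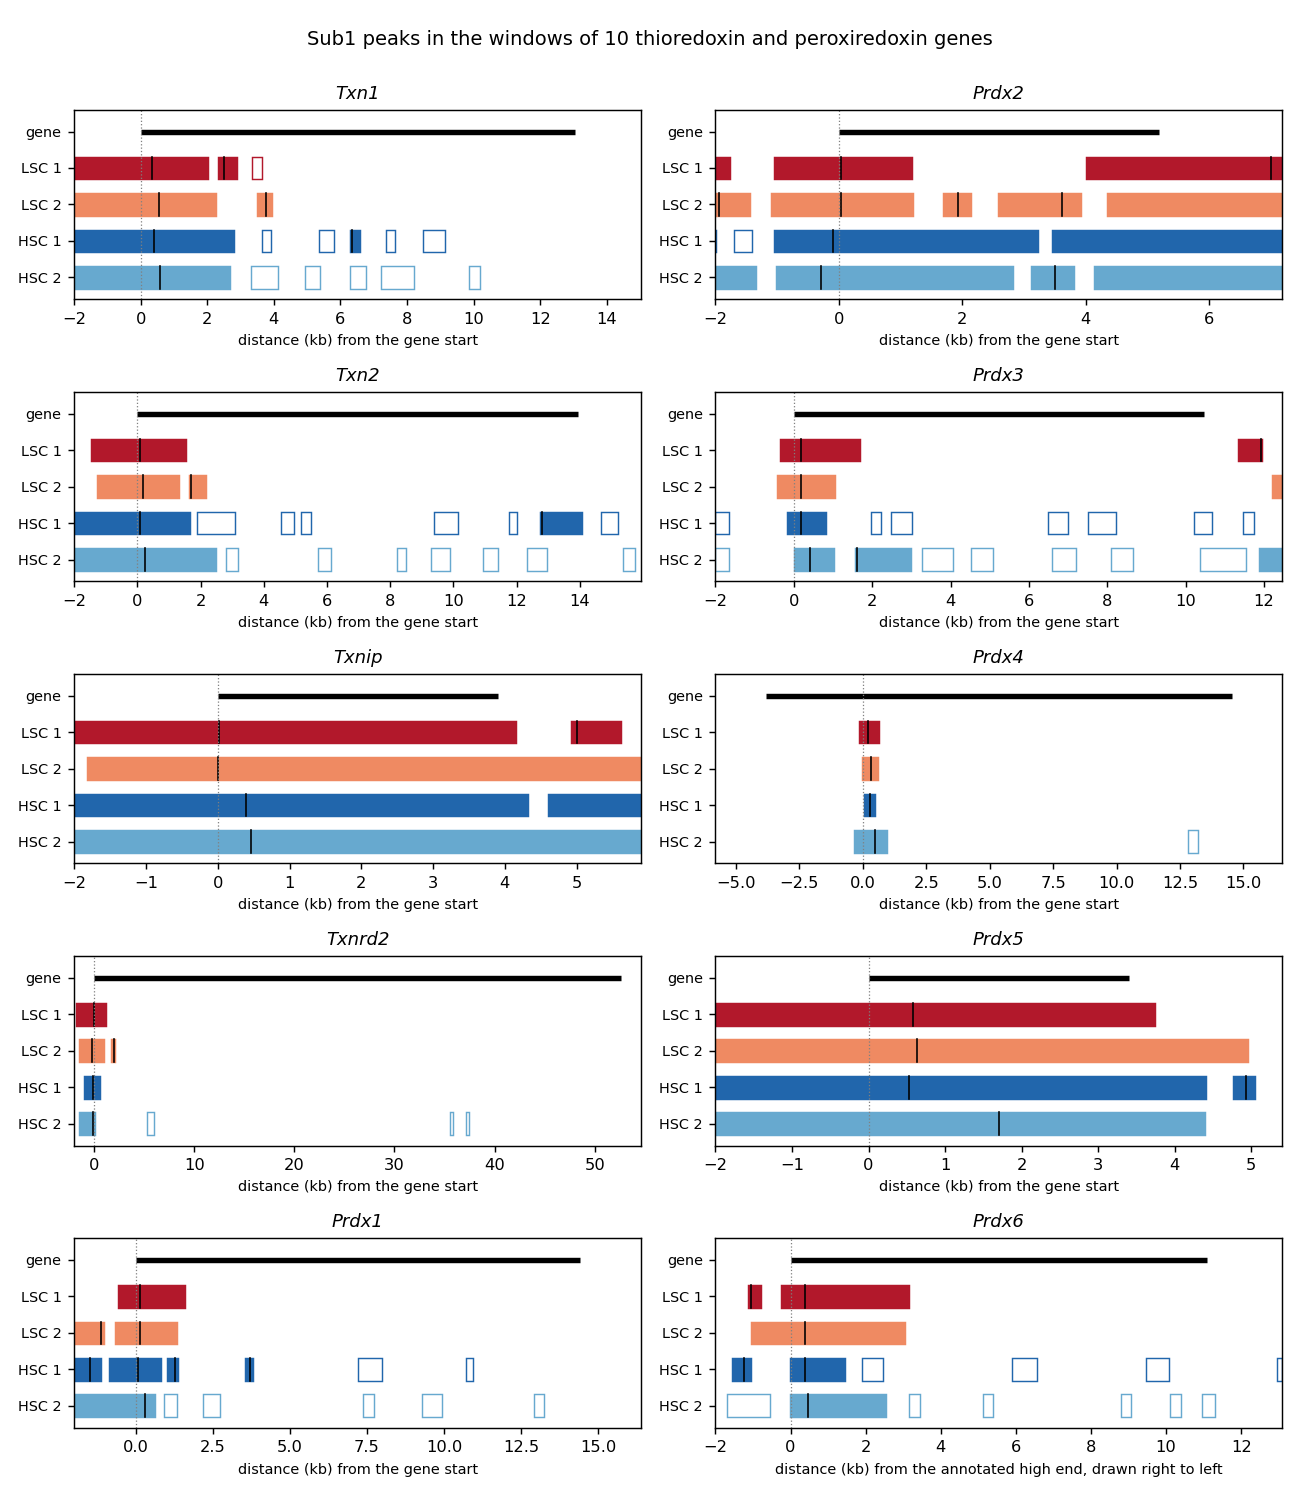
Each panel shows 1 gene window, with distance in kb from the gene start on the x axis (for Prdx6 from the annotated high end) and the gene body in black. Bars are peaks of LSC 1, LSC 2, HSC 1 and HSC 2, clipped at the window, filled where the peak is among the 34185 strongest of its library and open where it is not, with black ticks at the summits of filled peaks. Filled peaks gather at the gene starts in all 4 libraries. The open peaks along the gene bodies are almost all from HSC libraries, which follows from list length. LSC 2 has 34185 peaks in all and so can have no open peak. LSC 1 has 41097, against 115881 and 235680 in HSC 1 and HSC 2.

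Of the thioredoxins, Txn1 was ahead in HSCs, with LSC 2 and HSC 1 under 1 percentage point apart, while at Txn2 the groups overlapped. Txn1 encodes the thioredoxin of cytosol and nucleus and lies on chromosome 4 from 57943373 to 57956411. Its strongest peak had a fold of 167 and 148 in LSC 1 and LSC 2 and of 53.1 and 124 in HSC 1 and HSC 2, with list percentiles of 6.95% and 3.75% in LSCs against 3.35% and 0.354% in HSCs. The HSC 2 peak ranked 121 of all peaks of that library, the highest place of any peak in the 10 windows. The mean list percentile was 5.35% ± 2.27 in LSCs and 1.85% ± 2.12 in HSCs (SD, n = 2 each), a difference of 3.50 percentage points (exact permutation p = 0.33), which was 1.90 without LSC 1 and 2.00 without HSC 2. Summits lay inside the gene, 336 and 553 bases from the start in LSC 1 and LSC 2 and 398 and 590 in HSC 1 and HSC 2. The peak reached over the start of the lncRNA gene Gm35344, which begins 32 bases away on the other strand, so the peak cannot be given to either gene alone. Txn2 encodes mitochondrial thioredoxin (chromosome 15, 77915051 to 77928994). Its folds were 83.0 and 65.6 in LSCs and 27.3 and 29.0 in HSCs, and its list percentiles were 20.3% and 17.0% in LSCs and 17.0% and 21.0% in HSCs, so the libraries of the groups interleaved (difference of means -0.32 points, exact permutation p = 1). Of all 10 windows, only those of Txn2 and Prdx4 had list percentiles above 16% in every library.

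Txnip and the reductase gene Txnrd2 lay in opposite orders. Txnip (chromosome 3, 96557957 to 96561857) was covered by a peak along nearly its whole length. Its folds were 120 and 126 in LSC 1 and LSC 2 and 55.0 and 87.6 in HSC 1 and HSC 2, and its list percentiles were 13.8% and 5.88% in LSCs and 2.88% and 1.83% in HSCs. Both HSC libraries were ahead, by a mean of 7.49 percentage points (9.85% ± 5.62 in LSCs, 2.36% ± 0.741 in HSCs, SD, n = 2 each, exact permutation p = 0.33). The difference was 3.52 without LSC 1 and 11.46 without LSC 2. The summit stood 11 and 9 bases from the start in the LSC libraries, and 389 and 458 bases inside the gene in the HSC libraries. The lncRNA gene Gm15441 spans the whole of Txnip. Txnrd2, which encodes the mitochondrial thioredoxin reductase (chromosome 16, 18426417 to 18479073), had folds of 141 and 64.3 in LSCs and 25.8 and 21.7 in HSCs. Its list percentiles were 10.3% and 17.3% in LSCs and 18.2% and 30.4% in HSCs, so both LSC libraries were ahead, LSC 2 and HSC 1 by under 1 percentage point (difference of means -10.5 points, exact permutation p = 0.33). It was -16.6 without HSC 1 and -4.44 without HSC 2. The summits lay before the start, at -41 and -203 bases in LSCs and at -130 and -165 bases in HSCs.

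**Figure D2:**
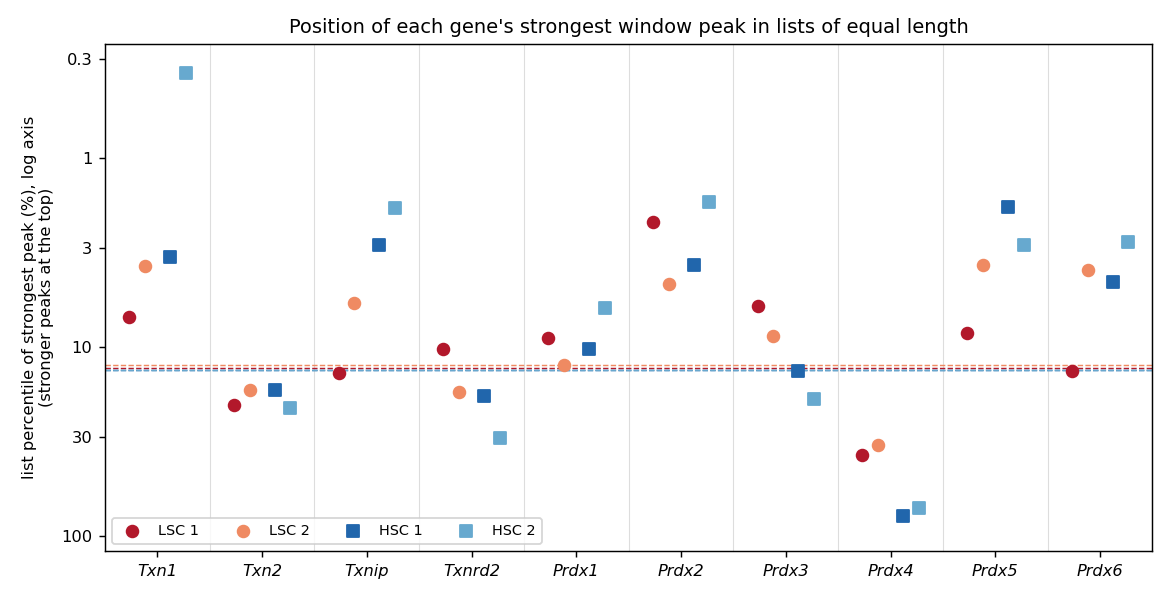
The y axis gives, on a log axis with strong peaks at the top, the list percentile of each gene's strongest window peak in lists of 34185 peaks, for LSC 1 and LSC 2 (circles) and HSC 1 and HSC 2 (squares). Dashed lines are the medians of the same value over 10956 genes with a peak in all 4 lists, by library. Prdx4 lay lowest in all 4 libraries, and Txn1 in HSC 2 lay highest.

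Among the typical 2-Cys peroxiredoxins, which work as dimers and are restored by thioredoxin, Prdx3 and Prdx4 were ahead in LSCs, while the groups overlapped at Prdx1 and Prdx2. Prdx1, a cytosolic enzyme (chromosome 4, 116685599 to 116700000), had folds of 151 and 86.0 in LSCs and 36.4 and 59.7 in HSCs and list percentiles of 8.96% and 12.4% in LSCs and 10.3% and 6.21% in HSCs. Its summit lay 136 bases inside the gene in both LSC libraries and 60 and 289 bases inside it in HSC 1 and HSC 2. The strongest peak also covered, in all 4 libraries, the start of AV051173 on the other strand, 423 bases from the Prdx1 start, so it cannot be given to Prdx1 alone. Prdx3, the mitochondrial enzyme (chromosome 19, 60864066 to 60874538), had folds of 174 and 105 in LSCs and 31.7 and 31.9 in HSCs. Its list percentiles were 6.11% and 8.74% in LSCs and 13.4% and 18.8% in HSCs (7.43% ± 1.86 and 16.1% ± 3.86, SD, n = 2 each, difference -8.66 points, exact permutation p = 0.33). The Prdx3 summits stood 188 and 193 bases inside the gene in LSCs and 190 and 411 in HSCs, so that 3 libraries agreed to within 5 bases. Beyond the far end of Prdx3 lay a peak over the start of the next gene, Sfxn4. Its summit fell between positions 60861445 and 60861451 in all 4 libraries, outside the Prdx3 window, and it entered the window in LSC 2 and HSC 2 alone.

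Prdx4 had the weakest peaks of the 10 genes in every library. It encodes the peroxiredoxin of the endoplasmic reticulum and lies on the X chromosome from 155323918 to 155342272, with the start used here, from the RefSeq promoter table, inside that span at 155338460. Folds were 17.5 and 16.4 in LSC 1 and LSC 2 and 10.3 and 13.9 in HSC 1 and HSC 2, and the peaks were 0.802 and 0.621 kb wide in LSCs and 0.449 and 1.303 kb wide in HSCs. List percentiles were 37.1% and 33.0% in LSCs and 78.7% and 71.4% in HSCs, a difference of means of -40.0 percentage points (35.1% ± 2.89 in LSCs, 75.1% ± 5.16 in HSCs, SD, n = 2 each, exact permutation p = 0.33). Over all protein-coding genes the median list percentile was also lower in LSCs, at 33.5% and 34.0%, than in HSCs, at 61.1% and 57.4%. The cause of that shift was not tested. Placed among all protein-coding genes by the strongest window peak of each, a scale chosen after the data were seen, Prdx4 stood at 51.6% and 49.5% in LSCs and 52.1% and 52.5% in HSCs. Of the 10 genes 2 were then ahead in LSCs (Prdx3 and Prdx4, against 15.3% of all genes) and the same 3 in HSCs (21.4%). For Prdx4 the difference of means on that scale was -1.76 percentage points, against -40.0 on the list scale. Txnrd2 also lost its order on that scale, with 20.6% and 32.8% in LSCs and 32.6% and 42.3% in HSCs, while Prdx3 kept it at 12.9% and 18.6% in LSCs and 25.4% and 32.8% in HSCs.

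Prdx2 had separate peaks at its start and beyond its end, and these lay in opposite orders. Prdx2, a cytosolic enzyme that is abundant in red cells, lies on chromosome 8 from 84969622 to 84974811. The peak over its start had folds of 232 and 138 in LSCs and 44.9 and 65.0 in HSCs. The start peak reached list percentiles of 2.18% and 4.65% in LSCs and 5.86% and 4.98% in HSCs, so both LSC libraries were ahead, LSC 2 by less than 1 percentage point (difference of means -2.00 points, exact permutation p = 0.33). Its summit was the same base in both LSC libraries, 30 bases inside the gene, and lay before the start in HSC 1 and HSC 2, at -92 and -291 bases. The start peak was 2245 and 2300 bases wide in LSCs and 4277 and 3851 bases wide in HSCs. The downstream peak began inside the last part of Prdx2 and ran over Junb, which encodes an AP-1 transcription factor. It was 7642 and 13628 bases wide in LSCs and 14239 and 18776 bases wide in HSCs. Its list percentiles were 18.3% and 13.4% in LSCs and 3.68% and 1.71% in HSCs, so both HSC libraries were ahead by a mean of 13.2 percentage points (exact permutation p = 0.33). None of its summits lay inside the Prdx2 window in HSCs or in LSC 2. Along the chromosome, the summit stood at -2130 and 7370 bases from the Junb start in LSC 1 and LSC 2. In HSC 1 and HSC 2 it stood at -1722 and -881 bases, so LSC 2 was ranked by a summit at another site. The HSC 2 peak also covered the start of Hook2. The strongest window peak of Prdx2 was the start peak in both LSC libraries and the peak over Junb in both HSC libraries, and by that measure the groups overlapped (2.18% and 4.65% in LSCs, 3.68% and 1.71% in HSCs).

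Prdx5 was ahead in HSCs, with LSC 2 and HSC 2 under 1 percentage point apart, while at Prdx6 the groups overlapped. Prdx5, an atypical 2-Cys enzyme of mitochondria, peroxisomes and cytosol, is a short gene (chromosome 19, 6906697 to 6910106) that 1 broad peak covered from end to end in every library. Its folds were 155 and 148 in LSCs and 61.2 and 76.9 in HSCs, and its list percentiles were 8.45% and 3.71% in LSCs and 1.81% and 2.90% in HSCs (6.08% ± 3.35 and 2.35% ± 0.765, SD, n = 2 each, difference 3.72 points, exact permutation p = 0.33). The difference was 1.35 without LSC 1 and 6.09 without LSC 2. The same peak covered the start of Trmt112, which overlaps Prdx5 on the other strand and starts 408 bases from the Prdx5 start, and it reached Esrra, so it cannot be given to Prdx5 alone. Prdx6 is the 1-Cys member, which uses glutathione and also has phospholipase activity (chromosome 1, 161240112 to 161251210). Its folds were 122 and 146 in LSCs and 48.4 and 77.6 in HSCs and its list percentiles 13.5% and 3.92% in LSCs and 4.55% and 2.79% in HSCs. LSC 2 lay between the HSC libraries (8.69% ± 6.75 in LSCs, 3.67% ± 1.25 in HSCs, SD, n = 2 each, difference 5.02 points, exact permutation p = 0.67). Without LSC 1 the difference was 0.249 points, and without LSC 2 it was 9.80. The peak lay at the high end of the gene, with its summit 375 and 381 bases from that end in LSCs and 381 and 457 in HSCs.

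In all, 3 of 10 genes were ahead in LSCs (Txnrd2, Prdx3 and Prdx4) and 3 in HSCs (Txn1, Txnip and Prdx5). Among all protein-coding genes 20.6% were ahead in LSCs and 9.86% in HSCs, and among the 10956 genes with a peak in all 4 cut lists 30.6% and 18.1% were. All 10 genes belong to the second set, where 3 of 10 matches the LSC share to within 1 gene and exceeds the HSC share by little more than 1 gene, so nothing about the 10 genes as a group is read from these counts. The count of genes ahead in HSCs was 5 without LSC 1, when Prdx1 and Prdx2 joined, and 6 without HSC 1, when Prdx6 joined as well. With a library left out the call is easier for any gene to meet. No share over all genes is given for that call, so these counts cannot be set against the shares above. The median list percentile of the 10 genes was 9.63% and 7.31% in LSC 1 and LSC 2 and 7.40% and 4.55% in HSC 1 and HSC 2.

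HSC libraries, whose deposited lists were longer, had many more weak peaks along the bodies of these genes. In the deposited lists the 10 windows held 17 and 19 peaks in LSC 1 and LSC 2 and 44 and 48 in HSC 1 and HSC 2. Txn2 had 1 and 2 peaks in LSCs and 8 in each HSC library, and Prdx3 had 2 in each LSC library and 8 and 9 in HSCs. At 5 of the 10 genes (Txn1, Txn2, Prdx1, Prdx3 and Prdx6) both LSC libraries had fewer peaks than both HSC libraries. Of all protein-coding genes 52.3% showed the same, so nothing about the 10 genes as a group is read from these peak counts. The reverse held at 0 genes (0.315% of all genes). By the share of the window that peaks covered, LSCs were below HSCs at 5 genes (Txn1, Txn2, Prdx1, Prdx2 and Prdx3, against 42.8% of all genes) and above them at Txnrd2 (2.24%). In lists of 34185 peaks the windows held 16 and 19 peaks in LSCs and 19 and 15 in HSCs, and 0 of 10 genes had fewer peaks in both LSC libraries (5.98% of all genes) or more (7.39%). The covered share in these lists was lower in both LSC libraries at Txn2 and Prdx2 (10.5% of all genes) and higher at Txnrd2 and Prdx6 (18.9%). When peaks of the 4 deposited lists that overlapped by at least 1 base were merged, the windows held 51 regions. Of these, 13 were found in all 4 libraries (7.71% of regions in all gene windows), 9 in HSC 1 and HSC 2 only (8.62%) and 0 in LSC 1 and LSC 2 only (0.36%). A further 0 and 1 regions came from LSC 1 alone and LSC 2 alone (2.96% and 1.17% of regions in all gene windows), and 10 and 18 from HSC 1 alone and HSC 2 alone (17.8% and 54.5%). In the cut lists 12 of 17 regions were in all 4 libraries, against 23% of regions in gene windows, and 0 were in LSCs alone (5.86%) or in HSCs alone (2.56%). A library counts for a region by any peak in it, also one outside the window. In the cut lists HSC 1 counts for a region at Prdx3 only by its peak over the Sfxn4 start, outside the Prdx3 window.

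**Figure D3:**
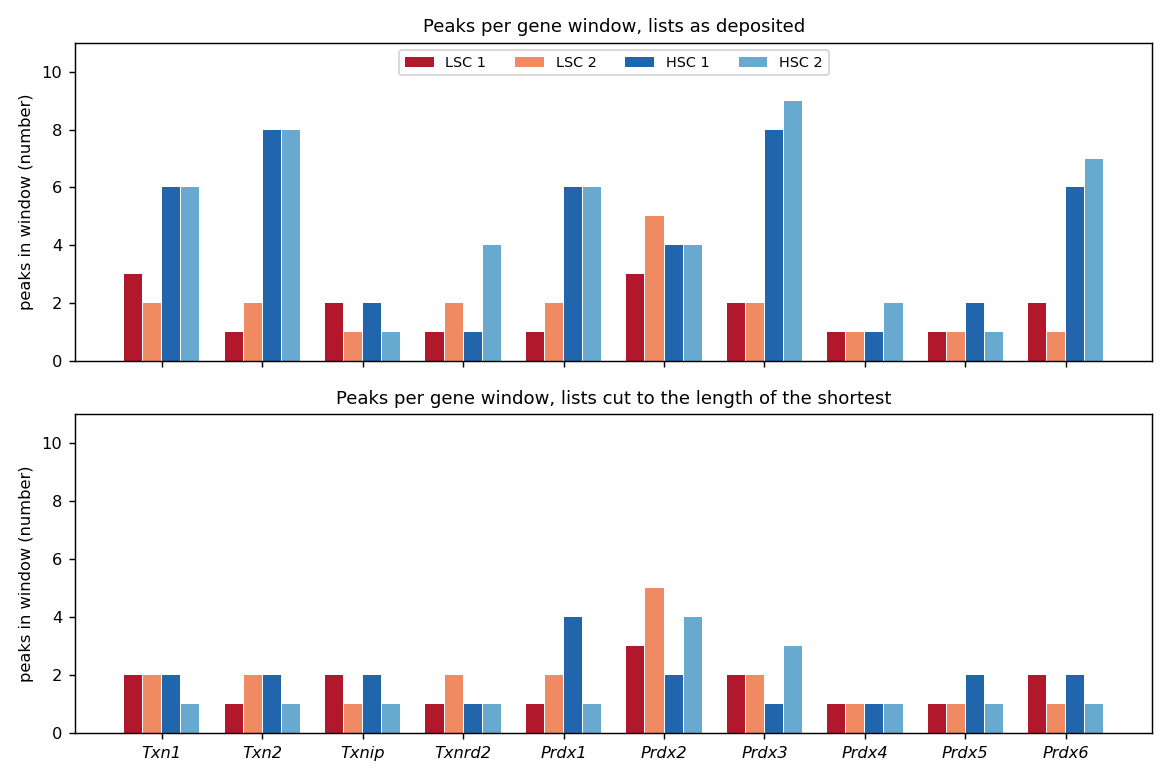
Bars give the number of peaks in each gene window for LSC 1, LSC 2, HSC 1 and HSC 2, in the deposited lists (top) and in lists of 34185 peaks (bottom). The HSC bars reach 9 peaks at Prdx3 in the deposited lists and no more than 4 in the cut lists.

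The width of the strongest peak set Txnip and Prdx5 apart from most genes in every library. Txnip peaks were 6.95 and 8.756 kb wide in LSC 1 and LSC 2 and 8.248 and 13.078 kb in HSC 1 and HSC 2, and wider peaks were found at 1.79% and 3.72% of genes with a peak in LSCs and at 3.20% and 1.04% in HSCs. Prdx5 peaks were 6.437 and 9.131 kb wide in LSCs and 9.261 and 7.187 kb in HSCs, with wider peaks at 2.34% and 3.33% of genes in LSCs and 2.44% and 4.34% in HSCs. The strongest window peak of Txn1 came next to them in LSCs, at 4.134 and 5.646 kb in LSCs and 4.987 and 5.737 kb in HSCs, where the peak over Junb in the Prdx2 window was the widest of all. Both Txnip and Prdx5 are short genes that share the covered stretch with other genes. The strongest peak was wider in both LSC libraries at Txnrd2, Prdx3 and Prdx6, and in both HSC libraries at Txn2 and Prdx2. These were 3 and 2 of 10 genes, against 37.5% and 11% of 12273 genes with a peak in all 4 deposited lists. At Prdx3 the widths were 2.041 and 1.495 kb in LSCs and 0.99 and 1.036 kb in HSCs, and at Txn2 3.015 and 2.608 kb in LSCs and 4.781 and 5.679 kb in HSCs.

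**Figure D4:**
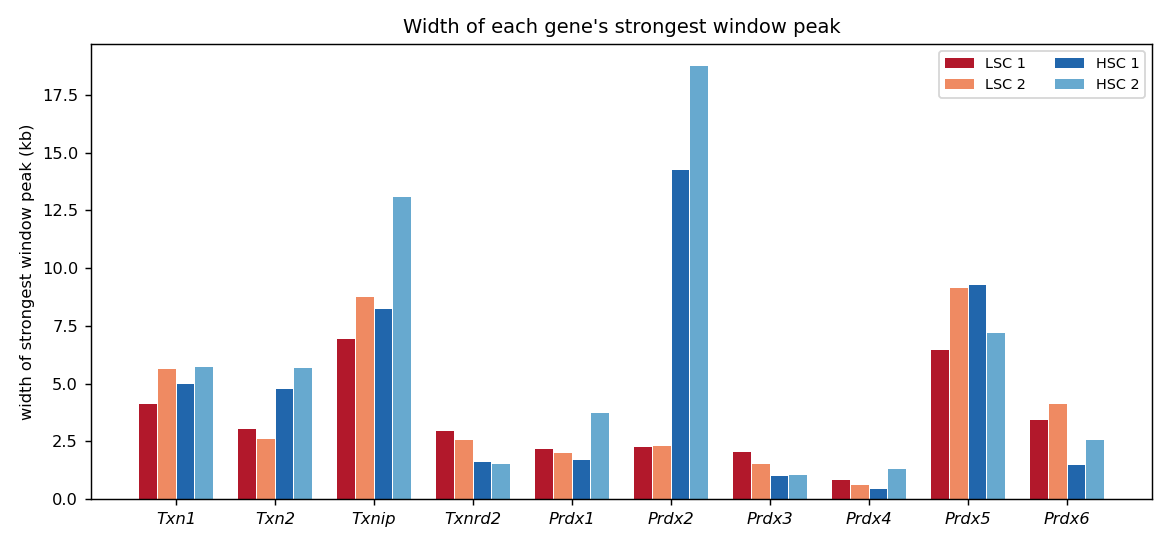
Bars give the width in kb of the strongest window peak of each gene in LSC 1, LSC 2, HSC 1 and HSC 2. The tall HSC bars at Prdx2 are the peak over Junb, while the LSC bars there are the peak at the Prdx2 start.

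Other genes of the pathway carried window peaks about as widely. Of 54 genes in 6 lists, 50 and 49 had one in LSC 1 and LSC 2 and 49 and 54 in HSC 1 and HSC 2, and 48 had one in all 4 libraries, where 56.1% of protein-coding genes did. None was found in LSC 1 and LSC 2 without an HSC peak, or in HSC 1 and HSC 2 without an LSC peak, in the deposited lists (0.0777% and 7.85% of all genes) or the cut lists (2.49% and 0.471%). All 4 glutaredoxins, all 5 thioredoxin clients (Map3k5, Apex1, Rrm1, Rrm2 and Rrm2b) and all 7 genes of Txnip regulators and other alpha-arrestins had a peak in every library. So did 19 of 21 other thioredoxin-fold and reductase genes, 7 of 8 repair genes of peroxiredoxins and methionine, and 6 of 9 genes for other peroxide and superoxide removal. Gpx7, Gpx8, Sod3 and Txndc8 had a peak in HSC 2 alone and none in any cut list. Both LSC libraries were ahead at 20 of the 54 genes and both HSC libraries at 7, against 20.6% and 9.86% of all genes. Of the 54, 46 had a peak in all 4 cut lists, and among all such genes the shares ahead were 30.6% in LSCs and 18.1% in HSCs. The 20 genes ahead in LSCs include Mlxipl, Txnrd3 and Nxnl2, which are not among the 46, while the 7 ahead in HSCs all are. The count of 20 is therefore not a count of that set, and nothing about the lists is read from it. Txnrd1, which encodes the cytosolic thioredoxin reductase, was among the 7. Its folds were 140 and 118 in LSCs and 52.1 and 63.6 in HSCs, with list percentiles of 10.4% and 6.84% in LSCs and 3.53% and 5.30% in HSCs (exact permutation p = 0.33). The Txnrd1 peak covered the inner starts at 82859206 and 82860341 on chromosome 10 in all 4 libraries, and no peak covered the outermost start at 82833951. Gpx4, the peroxidase of lipid hydroperoxides, was also ahead in HSCs, at 13.0% and 9.54% in LSCs and 5.89% and 8.26% in HSCs. Srxn1, which encodes the sulfiredoxin that restores overoxidised peroxiredoxins, had list percentiles of 28.4% and 26.2% in LSCs and 21.9% and 73.8% in HSCs, so the groups overlapped.

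Markers of the sorted cells and of other cells were read in the same windows, as peaks and not as expression. Of the 3 HSC gate genes, Ly6a and Slamf1 had a peak in each HSC list and in no LSC list, as 7.85% of all genes did. Slamf1 was in no cut list, and Ly6a stood near the end of the HSC cut lists, at 96.5% and 97.7%. The third, Kit, which also belongs to the LSC gate, had a peak in all 4 lists and was ahead in LSCs, with list percentiles of 19.3% and 11.3% in LSCs and 57.3% and 28.7% in HSCs. Cd34, Fcgr3 and Fcgr2b, the other LSC gate genes, had a peak in all 4 deposited lists, but their orders differed. Cd34 was in both LSC cut lists, at 12.6% and 21.3%, and in no HSC cut list, as 2.49% of all genes were. Fcgr3 was ahead in HSCs, at 12.8% and 8.59% in LSCs and 0.322% and 1.28% in HSCs. Its strongest HSC peaks, with folds of 88.4 and 95.4, were not those at its start, with folds of 39.3 and 71.5. In LSC 1 the strongest and start peaks had folds of 125 and 123, and in LSC 2 they were the same peak. The order at Fcgr3 therefore compares different peaks. At Fcgr2b the groups overlapped. Of 10 mature neutrophil genes, 9 in each LSC library and 10 in each HSC library had a window peak, Retnlg being absent from LSC lists. Both HSC libraries were ahead at all 10, against 9.86% of all genes, and the list's median list percentile was 45.9% and 30.05% in LSC 1 and LSC 2 and 15.3% and 17.5% in HSC 1 and HSC 2. The order of the groups at Txn1, Txnip and Prdx5 was the same as at these markers. Of 6 erythroid genes, 3 (Epor, Klf1 and Rhd) were ahead in LSCs, the order of Txnrd2, Prdx3 and Prdx4, and 0 in HSCs. Over all genes these shares were 20.6% and 9.86%. The Epor start had a peak in LSC 1 alone, with a fold of 10.1 against 169 for the strongest window peak. The Rhd start had a peak in HSCs only, with folds of 5.40 and 16.9. At Klf1 the start had a peak in all 4 libraries. The order at Epor and Rhd is therefore not one of peaks at their starts. The part of either marker list in the results was not tested. In the deposited lists, peaks were found at 3 of 6 B cell genes in each LSC library and 6 of 6 in each HSC library, at 4 and 3 of 6 erythroid genes in LSCs and 4 and 5 in HSCs, and at 2 and 1 of 6 T and NK cell genes in LSCs and 4 and 6 in HSCs. The share over all genes was 62.4% and 58% in LSC 1 and LSC 2 and 69.7% and 83.8% in HSC 1 and HSC 2. In the cut lists the counts were 3 and 3 in LSCs and 3 and 5 in HSCs for B cell genes, 3 and 3 in LSCs and 2 and 3 in HSCs for erythroid genes, and 1 in every library for T and NK cell genes. The share over all genes in the cut lists was 60.5% and 58% in LSCs and 54.2% and 56.7% in HSCs. Each count takes any peak in the window, also one away from the start of the marker. At Cd79a the strongest folds were 136 and 82.9 in LSCs and 53.1 and 73.4 in HSCs. Its start had a peak in HSCs only, with folds of 10.8 and 7.44.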

How the data were processed

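Sub1 CUT&Tag was measured in 2 LSC and 2 HSC libraries, made with 17 to 20 PCR cycles per the labels' protocols. The submitters' processing notes name Bowtie2 2.2.9, FastQC 0.11.5, MACS2 and ChIPseeker as tools and mm10 as the build. Peaks were listed per library; duplicate handling and the control used are not given in the sources used here. Each deposited list holds, per peak, the authors' fold (a ratio), the authors' -log10 p and -log10 q, and a deposited score of about 10 times -log10 q, which was not used.

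The members and gene lists were chosen with earlier results of these data known. Genes were 21887 protein-coding genes on chromosomes 1 to 19, X and Y of RefSeq GRCm38.p6. A gene was occupied when a peak overlapped its body extended by 2 kb. A gene without a peak in a list of 34185 peaks was set to 100%. Starts and strands came from the RefSeq promoter table, which matched 9 of 10 members. All members are named; of the lists, genes in 1 group alone, genes without peaks, Txnrd1, Srxn1 and Gpx4 were to be named, and Gpx7, Gpx8, Sod3, Txndc8 and genes given as examples were named after their values were seen. Steps were tested on simulated lists. Alternatives were other windows, the summit, the start, a stricter -log10 q, shorter lists, rank by fold, leaving out each library and pairing by replicate number. Python 3.11.15, NumPy 2.4.6, pandas 2.3.3 and matplotlib 3.10.9 were used.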

Additional observations from a re-analysis of the deposited data

How the results depend on the processing

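Presence in every library held for all 10 genes, or all 9 with an annotated start, under each alternative run, except that Prdx4 was missing from both HSC lists of 17092 peaks, leaving 9 genes in all 4 libraries and 1 gene in LSCs alone (3.78% of protein-coding genes). The count of genes ahead in LSCs stayed between 2 and 4. The count of genes ahead in HSCs ranged from 4 to 6 when a library was left out, and was 3 under the other alternatives apart from the replicate block. With the replicate block, in which same-numbered libraries were compared, 3 genes were ahead in LSCs in both pairs and 4 in HSCs, and the smallest p is 0.5. Leaving out a library and the replicate block both make the call easier for any gene to meet. No share over all genes is given for these calls, so nothing is read from their higher counts. The numbers share no stated origin; over 10956 genes, deviations of same-numbered libraries had a correlation of 0.283, which 2 pairs cannot turn into a pairing.

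For Prdx2 the difference in list percentile, LSC minus HSC, was 0.72 points as reported and turned to -2.00 with the summit inside the window and with peaks within 1 kb of the start, since the peak over Junb then no longer counts. It was between -0.51 and 1.96 with a library left out, at -0.51 without LSC 2 and -0.26 without HSC 2. For Txn2 the difference was -0.32 as reported and between -2.34 and 1.70 with a library left out, at 1.35 without LSC 2 and 1.70 without HSC 2. It was 1.501 with genes ranked among genes, an alternative chosen after the data were seen, and the cause was not tested. The other 8 genes kept their direction under every alternative run, but not their size. With a library left out the difference was between 0.249 (without LSC 1) and 9.80 for Prdx6, 0.45 (without HSC 2) and 4.49 (without HSC 1) for Prdx1, 1.35 and 6.09 for Prdx5, 1.90 and 5.10 for Txn1, 3.52 and 11.46 for Txnip, and -16.6 and -4.44 for Txnrd2. Ranking by fold put the peaks of the 10 windows in the order that -log10 p did, so it is no separate check, and Prdx6 has no value for the start. Deposited lists differ in length, so no rank comparison was made on them.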
